A study of Mus musculus with 14 samples.

Results

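The calcineurin-NFAT pathway was followed in the left ventricle through 10 genes, selected by name from a table of 49315 genes: the calcineurin subunit genes Ppp3ca, Ppp3cb and Ppp3r1, the transcription factor genes Nfatc1, Nfatc2, Nfatc3 and Nfatc4, the calcineurin regulator genes Rcan1 and Rcan2, and Myoz2. All 10 were present once in the table, and all 10 passed the filter on low counts, which 15292 genes passed. Male mice were operated at an age of 10 to 12 weeks, and bulk left ventricular RNA was sequenced 5 weeks later after poly(A) selection. WT-Sham (n = 4) and WT-TAC (n = 2, replicates 2 and 3) hearts carried the wild-type Hcn4 gene. HCN4F-Sham (n = 4) and HCN4F-TAC (n = 4) hearts came from a knock-in line in which a tyrosine of the HCN4 pacemaker channel is replaced by phenylalanine. The exchange sits in the Hcn4 gene itself and is not limited to a cell type by a transgene or Cre, and whether the mice carried 1 or 2 copies is not given in the sources used here. TAC, transverse aortic constriction, narrows the aorta and loads the left ventricle with pressure, and Sham animals underwent surgery without the constriction. Further WT-TAC samples of the study were not analysed here.

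Calcineurin is a phosphatase that is switched on by calcium and calmodulin. It removes phosphate groups from NFAT proteins, which then enter the nucleus and act on genes together with partners such as GATA4 and MEF2 proteins, and in cardiac muscle this route is known for its part in hypertrophic growth. Rcan1 encodes an inhibitor of calcineurin whose short form is transcribed from an internal start that NFAT itself can activate, and for this reason Rcan1 RNA is widely used as a readout of calcineurin activity.

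The annotation places Rcan1 (ENSMUSG00000022951) on the minus strand of chromosome 16 of GRCm38, with coding transcripts that start at position 92466146 and, 66.1 kb further downstream, at position 92400077. The table gives 1 count per gene, so the transcripts from the upstream and the internal start could not be told apart. RefSeq places these starts 23 bases and 1 base upstream of these positions. Other coding transcripts of Rcan1 start at 92470867, further upstream, and at 92458475, and no window is given for them. The 250 bases in front of each RefSeq start are given with those in front of Ppp3cb, to show a pair of starts of 1 gene that differ in their copies of GGAAA, the core of the NFAT binding sequence, beside a gene with as many copies as the internal start. Sequences are from RefSeq on GRCm38.p6, are written 5′ to 3′ on the strand of the gene, and have GGAAA and its reverse complement TTTCC in capitals.

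Rcan1, internal start, chr16:92400079-92400328, minus strand: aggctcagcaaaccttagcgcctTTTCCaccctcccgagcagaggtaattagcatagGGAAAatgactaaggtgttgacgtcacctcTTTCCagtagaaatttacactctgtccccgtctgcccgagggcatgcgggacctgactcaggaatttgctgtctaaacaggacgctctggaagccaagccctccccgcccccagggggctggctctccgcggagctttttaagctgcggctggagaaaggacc

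Rcan1, upstream start, chr16:92466170-92466419, minus strand: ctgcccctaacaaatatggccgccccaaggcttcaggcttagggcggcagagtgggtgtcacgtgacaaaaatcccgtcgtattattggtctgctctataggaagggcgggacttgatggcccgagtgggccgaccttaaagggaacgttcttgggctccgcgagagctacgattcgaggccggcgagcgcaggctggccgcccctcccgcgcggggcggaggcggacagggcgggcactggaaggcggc

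Ppp3cb, chr14:20546574-20546823, minus strand: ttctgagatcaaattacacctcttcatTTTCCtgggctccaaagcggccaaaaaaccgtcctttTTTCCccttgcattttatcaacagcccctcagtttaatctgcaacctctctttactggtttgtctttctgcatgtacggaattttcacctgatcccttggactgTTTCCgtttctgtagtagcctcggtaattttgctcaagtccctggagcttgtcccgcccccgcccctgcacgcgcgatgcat

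The window of the internal Rcan1 start held 3 copies and that of the upstream start held 0. Of 32851 such windows of the mouse genome, 55.6% held at least 1 copy on either strand and 6.39% held at least 3. Ppp3cb, which did not pass the test in any comparison below, also had 3 copies, and so had 1 window each of Nfatc2 and Nfatc4. Windows were used for 8 of the 10 genes (13 windows). No window was available for Ppp3ca, and windows of these genes on chromosome 18, where Nfatc1 lies, were left out. A match is a match of letters and was not tested for binding.

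Depth was 22309914 to 35210939 counts per library (median 27676182), and each of the 10 genes had between 121 and 29343 counts in every library. The lowest counts belonged to Nfatc4. For genes such as Nfatc4, Nfatc1, Ppp3ca, Ppp3cb and Ppp3r1 counting error was of about the size of the spread within some groups. Levels are CPM, counts scaled to a common library total, after TMM scaling in edgeR. All 10 cardiomyocyte markers were detected in each library, with a summed level of 68437 to 95884 CPM. The 6 atrial markers summed to 31.9 to 59.1 CPM, with the highest value in HCN4F-TAC replicate 2, and the defining skeletal muscle and lymphocyte markers summed to at most 5.20 CPM. In bulk tissue, fewer cells of a type and less RNA per cell cannot be told apart.

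Per length, the genes spanned a wide range of levels in all hearts. Over the 14 libraries, CPM per kb of merged exons averaged 221 for Myoz2, which encodes calsarcin-1, a protein that holds calcineurin at the Z-disc of the sarcomere. Rcan2, the second regulator of calcineurin, followed with 94.0 CPM per kb and Rcan1 with 47.1 CPM per kb. The regulatory subunit gene Ppp3r1 had 15.1 CPM per kb, and the catalytic subunit genes Ppp3ca and Ppp3cb had 7.84 and 5.72 CPM per kb. The transcription factor genes were lowest, with 2.87 CPM per kb for Nfatc1, 1.81 for Nfatc3, 1.56 for Nfatc2 and 1.05 for Nfatc4. Most neighbours in this order kept their order in all 14 libraries. The exceptions were Rcan2 above Rcan1 (12 libraries), Rcan1 above Ppp3r1 (13 libraries) and Nfatc3 above Nfatc2 (10 libraries). Dividing by the length of the longest coding transcript, an alternative chosen after seeing the data, gave the same order of all 10 genes.

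Rcan1 varied far more than the others. Its highest library was 6.83 times its lowest, whereas the same ratio was 1.17 for Ppp3ca, the steadiest gene, and 1.88 for Nfatc2, the most variable of the other 9 genes.

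**Figure D1:**
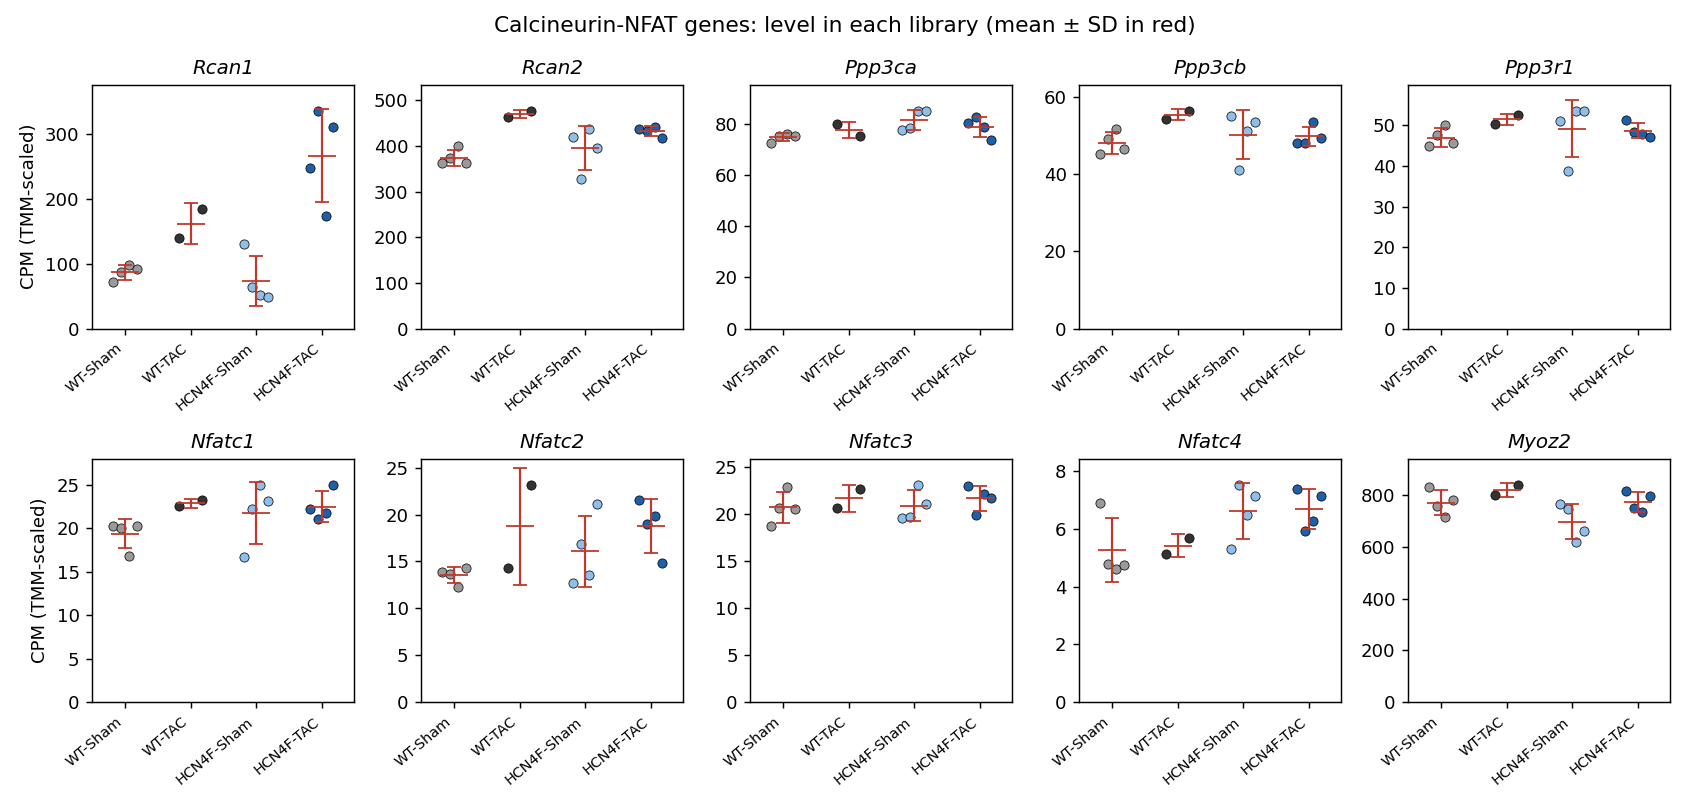
Level of each of the 10 genes in each library (points; y axis, TMM-scaled CPM from 0; x axis, group) with the group mean and SD in red. Rcan1 rises from 49.1 to 131 CPM in HCN4F-Sham to 173 to 335 CPM in HCN4F-TAC, while the other genes vary by a factor of 1.17 to 1.88 over all libraries.

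Rcan1 rose after TAC in HCN4F hearts and was the only 1 of the 10 genes to pass there. Its level was 131, 63.9, 51.4 and 49.1 CPM in HCN4F-Sham replicates 1 to 4 and 248, 335, 173 and 310 CPM in HCN4F-TAC replicates 1 to 4. Every HCN4F-TAC library lay above every HCN4F-Sham library, of which replicate 1 stood above the other 3. The means were 73.8 CPM ± 38.6 (SD, n = 4) and 267 CPM ± 72.3 (SD, n = 4), a 3.61-fold increase with a 95% interval of 2.23 to 5.85. On the log2 scale the change was 1.85 with a standard error of 0.32, larger than that of 99.4% of the tested genes. The adjusted p was 0.00316 by the quasi-likelihood test of edgeR, with the Benjamini-Hochberg method applied over all tested genes. In this comparison 13.6% of all tested genes had an adjusted p under 0.05, and 2.75% also had a log2 fold change above 1 or below -1. Rcan1 was 1 of 10 members to pass by either rule, so by the first rule the share of members that passed was near that over all genes. Groups without overlap were found for 15.1% of all genes and among the members for Rcan1 alone.

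The increase of Rcan1 in HCN4F hearts passed in each of the 16 alternatives tried, with log2 fold changes of 1.70 to 2.28 and adjusted p-values of 3.2e-06 to 0.0193. Leaving out HCN4F-Sham replicate 1 gave 2.28, and leaving out HCN4F-TAC replicate 2 gave 1.72, the latter library having the highest level of atrial markers. The summed level of 8 fibroblast markers was 792 to 1017 CPM in HCN4F-Sham and 998 to 1752 CPM in HCN4F-TAC, with 5 of 8 higher at an adjusted p under 0.05, and all 8 were detected in each library. The summed level of the cardiomyocyte markers was 81520 to 90820 CPM in HCN4F-Sham and 68437 to 78819 CPM in HCN4F-TAC, with 4 of 10 lower and 1 higher. The mitochondrial share of counts was 17.1 to 21.4% in HCN4F-Sham and 13.9 to 18.6% in HCN4F-TAC. In both HCN4F groups it was lowest in the library with the highest Rcan1. In WT-Sham and WT-TAC it was lowest in replicate 2 (19.6% and 18.4%), whereas Rcan1 was highest in replicate 3 (20.9% and 20%). Of 4 tested atrial markers Stard10 was lower (log2 fold change -1.12, adjusted p = 0.000491 in edgeR) and Nr2f2 (-0.16) did not pass. Myl7 and Myl4 had values of 2.99 and 1.60 that did not pass. Their means were 0.31 and 2.06 CPM in HCN4F-Sham and 2.52 and 6.19 CPM in HCN4F-TAC. Of 3 tested skeletal muscle markers 1 was higher and 1 lower, and of 2 tested lymphocyte ones 1 (Cd79a) was higher. The part of these shifts in the Rcan1 result was not tested.

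In WT hearts Rcan1 was 71.2, 86.7, 98.4 and 91.3 CPM in WT-Sham replicates 1 to 4 and 139 and 184 CPM in WT-TAC replicates 2 and 3. Both WT-TAC libraries thus lay above all WT-Sham libraries, which held for 19.2% of all tested genes. The means were 86.9 CPM ± 11.5 (SD, n = 4) and 162 CPM ± 31.7 (SD, n = 2), and the difference in log2 level was 0.90 with a standard error of 0.37 and a 95% interval of 0.09 to 1.70, which did not pass over all genes (adjusted p = 0.18, edgeR). Fitted on the WT groups alone it did pass, with an adjusted p of 0.00806 in edgeR and 1.06e-09 in DESeq2, within a range of 1.06e-09 to 0.59 over the alternatives. The 5 smooth muscle markers summed to 451 to 581 CPM in WT-Sham and to 329 and 342 CPM in WT-TAC, with 5 of 5 below 0 on the log2 scale (median -0.58) and 1 passing. The cardiomyocyte markers summed to 92831 to 95884 CPM and to 84441 and 86129 CPM, with 2 of 10 lower, and 0 of 8 fibroblast markers passed in edgeR (1 at an unadjusted p under 0.05). The part of these shifts in the values of Rcan1 and the other genes in WT hearts was not tested.

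Rcan2 also had higher values in WT-TAC hearts, in a comparison where 19.2% of all tested genes were higher without overlap. It was 363, 373, 399.8 and 363 CPM in WT-Sham replicates 1 to 4 and 464 and 477 CPM in WT-TAC replicates 2 and 3. These groups did not overlap, and differed by 0.33 on the log2 scale with a standard error of 0.10 (edgeR adjusted p = 0.0613, or 0.000537 to 0.345 over the alternatives). In HCN4F hearts the groups overlapped, at 395 CPM ± 48.2 (SD, n = 4) in Sham and 433 CPM ± 10.6 (SD, n = 4) in TAC, a log2 fold change of 0.13 (95% interval -0.04 to 0.30, adjusted p = 0.299 in edgeR).

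The ratio of Rcan1 to Rcan2 per kb, given without a test, was 0.328 ± 0.0354 (SD, n = 4) in WT-Sham, 0.486 ± 0.0866 (SD, n = 2) in WT-TAC, 0.265 ± 0.128 (SD, n = 4) in HCN4F-Sham and 0.876 ± 0.25 (SD, n = 4) in HCN4F-TAC. The HCN4F-TAC values (0.555 to 1.10) lay above those of all other groups, of which HCN4F-Sham (0.166 to 0.442) overlapped both WT-Sham (0.278 to 0.357) and WT-TAC (0.425 and 0.548). Rcan1 exceeded Rcan2 per kb in HCN4F-TAC replicates 2 and 4 and in no other library.

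The genes of the calcineurin enzyme itself did not pass the test after TAC in either genotype. Ppp3ca, which encodes the alpha form of the catalytic subunit, was at 74.7 CPM ± 1.62 (SD, n = 4) in WT-Sham, 77.6 ± 3.25 (SD, n = 2) in WT-TAC, 81.5 ± 3.94 (SD, n = 4) in HCN4F-Sham and 78.8 ± 3.90 (SD, n = 4) in HCN4F-TAC. Its log2 fold change after TAC was 0.05 in WT (95% interval -0.11 to 0.22) and -0.05 in HCN4F (95% interval -0.18 to 0.08). The intervals of Ppp3cb, the gene of the beta form, were -0.01 to 0.42 in WT and -0.19 to 0.16 in HCN4F hearts. Those of Ppp3r1, which encodes the calcium-binding regulatory subunit, were -0.09 to 0.36 and -0.20 to 0.17. For Ppp3r1, 14.3% of the exonic bases are shared with Wdr92 on the same strand, so some reads may belong to either gene.

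The NFAT genes did not pass the test after TAC in either genotype. Nfatc2 was 12.3 to 14.3 CPM in WT-Sham, with 14.3 and 23.2 CPM in WT-TAC replicates 2 and 3. A single WT-TAC library was therefore high, and the difference of 0.48 on the log2 scale (SE 0.20, 95% interval 0.04 to 0.91, edgeR adjusted p = 0.186) became 0.08 without WT-TAC replicate 3 and 0.78 without replicate 2. The intervals of the log2 fold change after TAC in WT were -0.03 to 0.51 for Nfatc1, -0.14 to 0.28 for Nfatc3 and -0.33 to 0.42 for Nfatc4. In HCN4F hearts they were -0.18 to 0.27, -0.12 to 0.22 and -0.29 to 0.31 for the same genes, and -0.14 to 0.58 for Nfatc2. Myoz2 was at 770 CPM ± 47.8 (SD, n = 4) in WT-Sham and 820 ± 26.9 (SD, n = 2) in WT-TAC, and at 697 ± 68.4 (SD, n = 4) in HCN4F-Sham and 774 ± 38.0 (SD, n = 4) in HCN4F-TAC, with adjusted p = 0.606 and 0.22 in edgeR.

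Across the 10 genes, the log2 fold change after TAC was above 0 for 10 of 10 in WT hearts, with a median of 0.17, and for 7 of 10 in HCN4F hearts, with a median of 0.05. Over all tested genes the medians were -0.02 and -0.0067. In WT hearts 0 of 10 passed in edgeR's quasi-likelihood test, against 4.54% of all tested genes. At an unadjusted p under 0.05 there were 3 of 10 members, near the 22% of all genes. DESeq2 passed 1 member (Rcan2) on all groups, where 8.66% of the genes with an adjusted p passed, and 3 (Rcan1, Rcan2 and Nfatc2) on the WT groups alone, where 14.9% passed. In edgeR 2 members (Rcan1 and Rcan2) passed on the WT groups alone, against 13.6% of all genes, and 1 (Rcan2) without a filter, against 2.92%. Groups without overlap were found in WT for Rcan1, Rcan2, Ppp3cb, Ppp3r1 and Nfatc1, all higher after TAC, where 39.2% of all genes did not overlap and 19.2% were higher without overlap. The signs of Nfatc3 and Nfatc4 in WT, and those of Ppp3cb, Ppp3r1, Nfatc1 and Nfatc4 in HCN4F, turned when single libraries were left out.

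**Figure D2:**
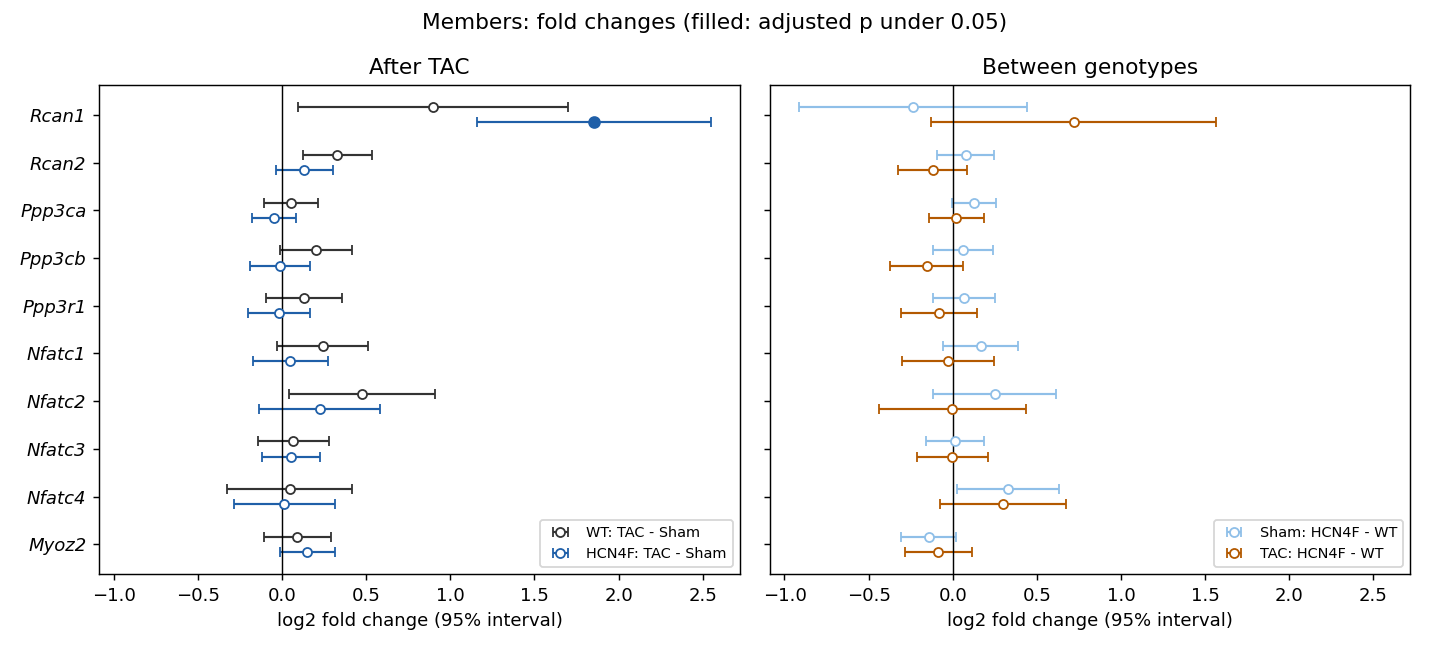
Log2 fold changes of the 10 genes with 95% intervals from edgeR's quasi-likelihood model (x axis), after TAC in each genotype (left) and between genotypes (right), with an adjusted p under 0.05 filled. Rcan1 after TAC in HCN4F hearts, at 1.85, is the only filled point, and the intervals of Rcan1 are the widest of the 10 genes.

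The comparisons between genotypes use the same libraries as those of TAC with Sham. In Sham hearts 0 of 10 passed in edgeR, against 0.471% of all tested genes, with 1 (Nfatc4) at an unadjusted p under 0.05, against 15.2% of all genes, and 0 in DESeq2 on all groups, against 2.24%. Rcan1 differed by -0.24 on the log2 scale (95% interval -0.91 to 0.44, adjusted p = 0.759 in edgeR), and by -0.67 (adjusted p = 0.089) without HCN4F-Sham replicate 1. All 4 HCN4F-Sham values of Ppp3ca exceeded those of WT-Sham, by 0.13 on the log2 scale (95% interval -0.01 to 0.26, adjusted p = 0.352 in edgeR), where 8.56% of all genes had no overlap. Nfatc4 differed by 0.33 (SE 0.14, adjusted p = 0.289 in edgeR), with overlapping groups. The cardiomyocyte markers summed to 92831 to 95884 CPM in WT-Sham and 81520 to 90820 CPM in HCN4F-Sham, with 8 of 10 below 0 on the log2 scale. Of the smooth muscle markers 5 of 5 were below 0 (median -0.25), and of the endothelial ones 8 of 8 were above 0 (median 0.18). In each of these lists 0 passed in edgeR, and their part in the values of the 10 genes was not tested.

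After TAC 0 of 10 genes passed between genotypes in edgeR, against 0.111% of all tested genes, with 0 at an unadjusted p under 0.05, against 12.5% of all genes, and 0 in DESeq2 on all groups, against 1.63%. The Rcan1 groups overlapped, since HCN4F-TAC replicate 3 had 173 CPM and WT-TAC replicate 3 had 184 CPM. The TAC groups differed by 0.72 on the log2 scale (SE 0.39, 95% interval -0.13 to 1.57, adjusted p = 0.477 in edgeR). Between the same groups 0 of 8 fibroblast and 0 of 8 macrophage markers passed in edgeR, but 8 and 5 of them had an unadjusted p under 0.05, with medians of 0.73 and 0.47 on the log2 scale, and 10 of 10 cardiomyocyte markers were below 0 (median -0.13, 0 passing, 2 at an unadjusted p under 0.05). Their part in the Rcan1 values was not tested. Rcan2 and Ppp3cb were lower and Nfatc4 was higher in HCN4F-TAC without overlap, by -0.12, -0.15 and 0.30 on the log2 scale, but 22.2% of all genes had no overlap in this comparison. Both comparisons of TAC with Sham enter the interaction of genotype and surgery, which was 0.96 for Rcan1 (SE 0.49, 95% interval -0.12 to 2.04, adjusted p = 0.581 in edgeR). A difference between genotypes in the response of Rcan1 to TAC thus did not pass. In the interaction 0 of 10 members passed in edgeR, with 0 at an unadjusted p under 0.05 and 0 in DESeq2. Among all genes 0% passed in edgeR, 9.27% had an unadjusted p under 0.05 (1418 genes), and 0.246% passed in DESeq2 (34 genes).

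The genes with the profile most like that of Rcan1 over the 14 libraries were Ankrd23, Nppb, Uck2, Ctgf and Cpxm2. By the root mean square difference of mean-centred log2 CPM among 12562 genes, the nearest were Ankrd23 (0.24), a stretch-associated ankyrin repeat gene, and Nppb (0.28), which encodes brain natriuretic peptide. Uck2 (0.34), a uridine-cytidine kinase gene, Ctgf (0.36), a matricellular growth factor gene, and Cpxm2 (0.37) followed, and the SD of Rcan1 itself on this scale was 0.88. Ankrd23 was 140, 76.2, 66.3 and 69.2 CPM in HCN4F-Sham replicates 1 to 4, and Nppb was 357, 210, 97.5 and 141 CPM. Both were thus highest in the same HCN4F-Sham library as Rcan1. In HCN4F-TAC replicates 1 to 4 Ankrd23 was 242, 382, 263 and 339 CPM and Nppb was 1035, 1213, 680 and 929 CPM, with replicate 2 the highest for each of the 3 genes. The genes nearest to Rcan2 were Pafah1b1, Cacul1, Selenot, Oxct1 and Rabgap1, with differences of 0.043 to 0.053 against an SD of 0.15. Those nearest to Myoz2 were Thap1, Pgs1, Zpr1, Pabpc4 and Klhdc3, with 0.072 to 0.077 against an SD of 0.12. The genes were picked for their likeness over these same 14 libraries, so a shared highest library follows in part from that choice. These profiles share the libraries and their scaling and are given as a description.

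**Figure D3:**
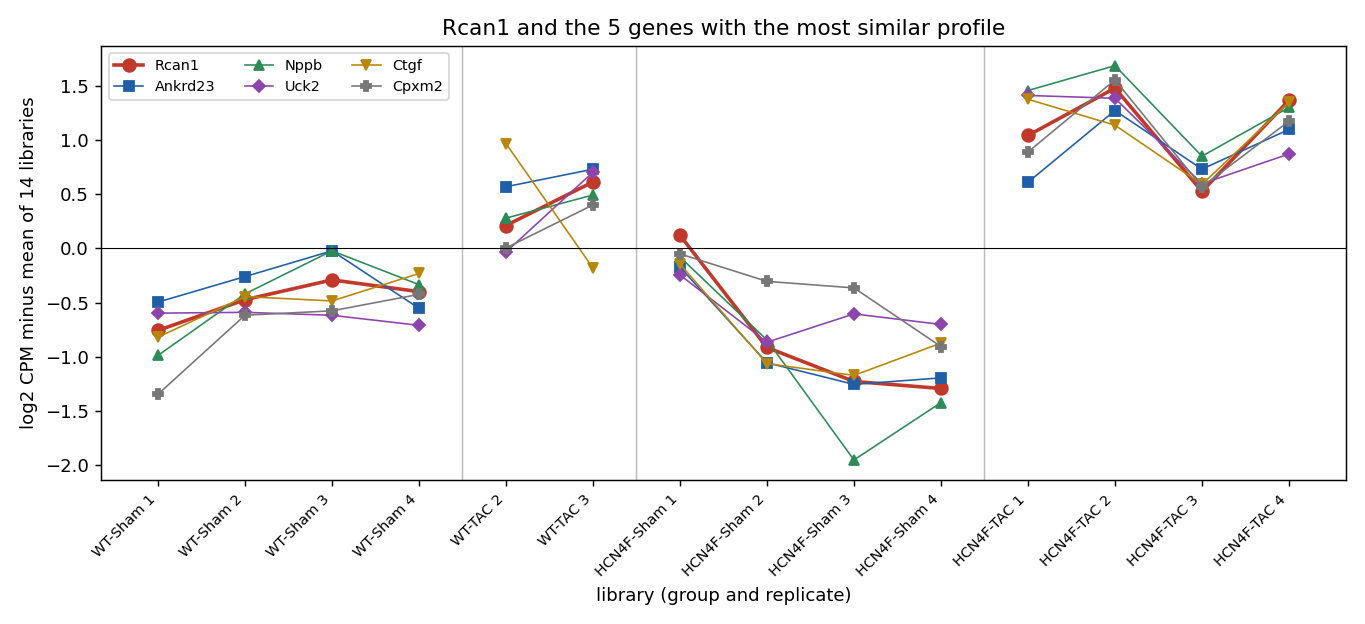
Log2 CPM minus the mean of 14 libraries (y axis) for Rcan1 (thick red line) and the 5 genes with the smallest root mean square difference from it, by library (x axis), with lines only joining libraries of 1 group. All 6 genes are above 0 in the 4 HCN4F-TAC libraries, and the HCN4F-Sham library with the highest Rcan1, Ankrd23 and Nppb is replicate 1.

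Of 49 other genes of the pathway that were listed, 44 could be tested. Ppp3r2, Myoz1, Myoz3, Nron and Trpc6 did not reach the filter. In WT hearts 3 of 44 were higher and 1 lower after TAC, and in HCN4F hearts 5 were higher and 3 lower, where over all tested genes 2.92% were higher and 1.62% lower in WT and 7.2% higher and 6.42% lower in HCN4F. The medians of the log2 fold change were 0.11 and 0.10. Between genotypes and in the interaction 0 of 44 passed in edgeR, with 6 in Sham, 9 in TAC and 5 in the interaction at an unadjusted p under 0.05. Over all genes the shares at that p were 15.2%, 12.5% and 9.27%. DESeq2 on all groups passed 1 of the 44 genes (Mapk14) between the TAC groups, against 1.63% of all genes.

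Among binding partners and regulators of calcineurin, the lowest p belonged to Tbc1d10c, the gene of carabin, an inhibitor of calcineurin and Ras. It was 7.24, 6.82, 5.73 and 5.42 CPM in WT-Sham replicates 1 to 4 and 2.50 and 2.57 CPM in WT-TAC replicates 2 and 3. In HCN4F hearts it was 6.51, 5.34, 5.78 and 5.10 CPM after Sham and 1.45, 1.32, 2.61 and 1.83 CPM after TAC. Every TAC library was thus below every Sham library in both genotypes, where 39.2% of all tested genes in WT and 15.1% in HCN4F had no overlap. On the log2 scale it fell in both, with values of -1.31 in WT (SE 0.22, adjusted p = 0.00579 in edgeR) and -1.65 in HCN4F (SE 0.18, adjusted p = 3.44e-05 in edgeR). Its call in WT was lost without WT-TAC replicate 3 (log2 fold change -1.33, adjusted p = 0.119 in edgeR, in a fit where 11 of all genes passed) and made in the other 13 alternatives. The difference between these changes did not pass (interaction -0.34, adjusted p = 0.732 in edgeR). Carabin is also known from lymphocytes, whose 8 markers summed to 2.18 to 3.92 CPM in WT-Sham, 2.75 and 3.18 CPM in WT-TAC, 2.35 to 2.92 CPM in HCN4F-Sham and 3.49 to 5.20 CPM in HCN4F-TAC. Of these markers 2 had enough counts to be tested, and after TAC 0 passed in WT and 1 was higher in HCN4F hearts. The part of lymphocytes in the level of Tbc1d10c was not tested.

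Csrp3, the gene of a Z-disc protein that binds calcineurin, rose in HCN4F hearts from 890 CPM ± 75.3 (SD, n = 4) to 1388 ± 171 (SD, n = 4), a difference of 0.64 on the log2 scale (SE 0.09, edgeR adjusted p = 0.000312). In WT hearts it was 983 ± 44.2 (SD, n = 4) in Sham and 1121 ± 131 (SD, n = 2) in TAC (adjusted p = 0.333 in edgeR). Rcan3, the third gene of the Rcan family, rose by 0.28 in HCN4F hearts (adjusted p = 0.027 in edgeR), and 10 of 16 alternatives called it. In WT hearts its value was 0.02 (adjusted p = 0.938 in edgeR). Its level was 11.6 CPM ± 0.571 (SD, n = 4) in WT-Sham, 11.7 ± 0.703 (SD, n = 2) in WT-TAC, 10.2 ± 0.483 (SD, n = 4) in HCN4F-Sham and 12.4 ± 0.790 (SD, n = 4) in HCN4F-TAC. For Rcan3, HCN4F-Sham lay below WT-Sham without overlap (adjusted p = 0.289 in edgeR), where 8.56% of all tested genes had no overlap.

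Of 7 tested partners of NFAT, Homer2, a scaffold gene whose protein competes with calcineurin for NFAT, rose in both genotypes. Its levels were 62.7 CPM ± 3.61 (SD, n = 4) in WT-Sham, 96.5 ± 8.79 (SD, n = 2) in WT-TAC, 69.8 ± 6.79 (SD, n = 4) in HCN4F-Sham and 99.1 ± 3.72 (SD, n = 4) in HCN4F-TAC. The log2 fold changes were 0.62 in WT (adjusted p = 0.00263 in edgeR, but 0.112 at a log2 fold change of 0.53 without WT-TAC replicate 3) and 0.51 in HCN4F (adjusted p = 0.00048 in edgeR). Gata4, a partner of NFAT on cardiac genes, rose by 0.39 in HCN4F hearts (adjusted p = 0.0267 in edgeR). It was called in 13 of 16 alternatives, and lost without HCN4F-Sham replicate 2 (adjusted p = 0.0671 in edgeR), HCN4F-Sham replicate 4 (0.0786) or HCN4F-TAC replicate 2 (0.0849), with log2 fold changes of 0.37, 0.35 and 0.35. In WT its value was 0.40 (adjusted p = 0.0952), with 0.08 to 0.66 over the alternatives, of which 3 of 14 passed.

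Among 11 kinases that phosphorylate NFAT and so oppose calcineurin, Gsk3b and Dyrk1a rose in WT hearts, by 0.44 (adjusted p = 0.0134 in edgeR) and 0.52 (adjusted p = 0.0238 in edgeR). In HCN4F hearts their values were 0.18 and 0.28, with adjusted p = 0.105 and 0.0597 in edgeR. Both had groups without overlap there, as had 15.1% of all tested genes, and Gsk3b passed in 0 and Dyrk1a in 2 of 16 alternatives. Both lost their call in WT without either WT-TAC library, with adjusted p-values of 0.0749 and 0.192 for Gsk3b and of 0.0644 and 0.263 for Dyrk1a in edgeR without replicate 2 and replicate 3. The log2 fold changes were then 0.44 and 0.44 for Gsk3b and 0.59 and 0.45 for Dyrk1a. Dyrk1a also lost it without WT-Sham replicate 1 (adjusted p = 0.0699 in edgeR) or 4 (0.0707), with log2 fold changes of 0.47 and 0.50. Mapk14, the gene of p38-alpha, fell by 0.37 on the log2 scale in HCN4F hearts (adjusted p = 0.00354 in edgeR) and had a value of -0.20 in WT (adjusted p = 0.223). Csnk1d rose by 0.21 and the calcium channel gene Orai3 fell by 0.27 in HCN4F hearts, with adjusted p = 0.0368 and 0.0369 in edgeR, and each was called in 7 of 16 alternatives. In WT hearts the value of Csnk1d was 0.25 (adjusted p = 0.0637 in edgeR, passing in 3 of 14 alternatives) and that of Orai3 was -0.14 (adjusted p = 0.418 in edgeR). The WT groups did not overlap for Csnk1d, nor for 39.2% of all tested genes.

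**Figure D4:**
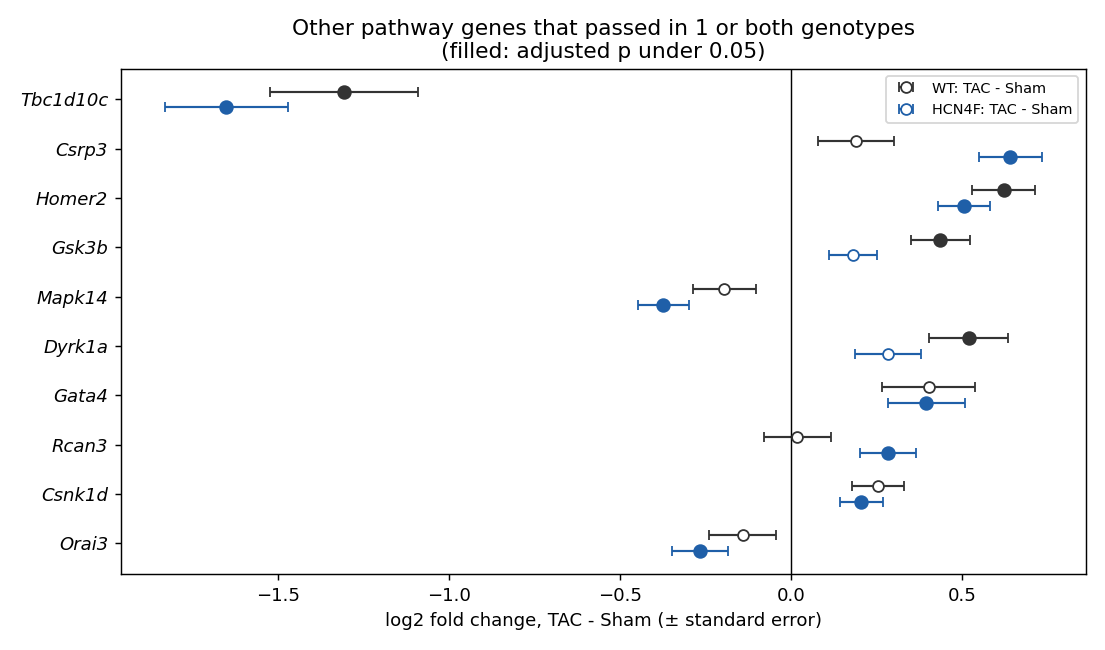
Log2 fold change after TAC with its standard error (x axis) for the 10 other pathway genes that passed in WT (black) or HCN4F (blue) hearts, with an adjusted p under 0.05 filled. Tbc1d10c, at -1.31 and -1.65, lies farthest from 0, and Tbc1d10c and Homer2 are filled in both genotypes.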

How the data were processed

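Left ventricular RNA in 14 libraries was analysed. The authors deposited raw counts, whole numbers of reads per gene without normalization, per the labels on genome build GRCm38, and the aligner, the counting program and the use of strand are not given in the sources used here. The 2 further columns of per-sample values in the table match no sample and were not used. A gene name was blank for 174 genes, which were kept under their identifiers.

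Groups and replicate numbers were taken from the sample labels. The study describes its samples as biological replicates, and the labels do not tie libraries to animals, so p-values measure the spread between these samples. Counts of libraries of the same group differed by more than sampling noise. The members and the gene lists were chosen with earlier results of these data known. All 10 members are named, other pathway genes with an adjusted p under 0.05 in any comparison, and for Rcan1, Rcan2 and Myoz2 the 5 genes with the nearest profile (mean CPM of at least 1).

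Genes were filtered with edgeR's filterByExpr by group and scaled with TMM. In edgeR 4.0.16 (R 4.3.3), 1 model held all 14 libraries and 4 group means. Comparisons used its quasi-likelihood test with robust dispersions, and p-values were adjusted over 15292 genes by the Benjamini-Hochberg method. A gene passed at an adjusted p under 0.05. The study's threshold also asks for a log2 fold change above 1 or below -1. Intervals (95%) use the standard error and degrees of freedom of this model. CPM has no pseudocount, and log2 CPM used a prior count of 2. Exon lengths and transcript starts came from the GENCODE annotation on GRCm38, in which 99.3% of the IDs were found. Nfatc3 shares 1.87% of its exonic bases with Esrp2 on the opposite strand. The steps were tested on simulated data. Alternatives were the fit by DESeq2 1.42.0 (all groups, or those compared), the edgeR fit restricted to the groups compared, size factors from DESeq2, omission of the filter, a minimum mean CPM of 1, dispersions without the robust option, the replicate number as a block, the added fold threshold, CPM on total counts, and each library left out in turn. For the other pathway genes these were chosen after seeing the data. Python 3.11.15 and matplotlib 3.10.9 drew the figures.

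Cell type markers were summed per library and serve as a description. Their lists were cardiomyocyte, atrial, fibroblast, endothelial, smooth muscle, macrophage, lymphocyte, skeletal muscle and adipocyte. Of the lists not described with the comparisons of TAC with Sham, 0 of 8 endothelial, 0 of 8 macrophage and 0 of 1 tested adipocyte markers passed in edgeR after TAC in either genotype. Likewise 0 of 5 smooth muscle markers passed in HCN4F, and 0 of 4 atrial, 0 of 3 skeletal muscle and 0 of 2 lymphocyte markers in WT hearts. Among these, 2 macrophage markers in HCN4F hearts and 0 others had an unadjusted p under 0.05.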

Additional observations from a re-analysis of the deposited data

Results flagged for a closer look

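Of 30 groups of 4 libraries checked for a library far from the others, 2 had one, where chance flags about 1 in 20. Nfatc1 was 16.9 CPM in WT-Sham replicate 3, against values up to 20.3 CPM, all above 20 CPM, in the other WT-Sham libraries. Nfatc4 was 6.91 CPM in WT-Sham replicate 1, against 4.62 to 4.79 CPM in the others. Without that library the log2 fold change of Nfatc4 between HCN4F-Sham and WT-Sham was 0.49 (adjusted p = 0.133), and over its alternatives the adjusted p-values were 0.105 to 0.503 in edgeR and DESeq2.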

How the results depend on the processing

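Over 50 log2 fold changes of the members and 800 alternatives, 753 kept their direction and their side of the threshold, 7 came to pass, 0 ceased to pass and 40 changed sign. The call of Rcan1 after TAC in HCN4F hearts was made in every alternative. In WT hearts, where 0 members passed, 1 did so with DESeq2 on all groups, 1 without a filter, 2 with edgeR on the compared groups and 3 with DESeq2 on the compared groups, where 8.66%, 2.92%, 13.6% and 14.9% of all genes passed. Of the other pathway genes 4 passed in WT, and 7, 7, 8 and 10 of 44 under the same alternatives with the same shares of all genes, and 0 to 4 when a library was left out (0 without WT-TAC replicate 3, against 0.0695% of all genes). In HCN4F hearts 8 passed, 5 with edgeR on the compared groups (8.97% of all genes) and 5 to 8 with a library left out (5 without HCN4F-TAC replicate 2, 8.73% of all genes). Between genotypes 0 passed, but 0 to 2 in Sham (2 without HCN4F-Sham replicate 1, 3.72% of all genes) and 0 to 3 in TAC (3 without HCN4F-TAC replicate 3, 2.97% of all genes) with a library left out, and 1 in TAC with DESeq2. The cause was not tested.

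Signs turned for values that had not passed. Nfatc3 between the TAC groups was 0.00088 where genes needed a mean CPM of 1. Leaving out libraries gave ranges in WT of -0.0033 to 0.13 for Nfatc3, -0.034 to 0.20 for Nfatc4 and -0.045 to 0.078 for Rcan3. In HCN4F they were -0.060 to 0.11 for Nfatc1, -0.078 to 0.077 for Nfatc4, -0.098 to 0.033 for Ppp3cb and -0.11 to 0.027 for Ppp3r1. Between Sham groups Nfatc3 gave -0.039 to 0.063. Between TAC groups the ranges were -0.30 to 0.39 for Nfatc2, -0.069 to 0.069 for Nfatc3 and -0.020 to 0.064 for Ppp3ca. In the interaction they were -0.55 to 0.14 for Nfatc2, -0.082 to 0.056 for Nfatc3 and -0.19 to 0.048 for Nfatc4.

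Same-numbered libraries deviated with correlations of -0.12 to 0.16, so the numbers were not taken as a pairing. With the replicate block 0 members passed in WT and 1 in HCN4F hearts, and the sign turned for Nfatc3 between TAC groups (0.022) and in the interaction (0.010) and for Rcan3 in WT (-0.019). Over all genes the block moved the count from 694 to 225 in WT and from 2082 to 1974 in HCN4F hearts.

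Over all genes, 694 passed in WT hearts, 1196 with DESeq2 on all groups, 2009 with edgeR and 1919 with DESeq2 on the compared groups, and 11 without WT-TAC replicate 3. In HCN4F hearts 2082 passed and 1286 with edgeR on the compared groups. With 2 WT-TAC libraries the spread of that group is poorly known, and a lone library left in it is assumed to vary like the other groups.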
